A study of Mus musculus with 37 samples.

Results

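The 39 Hox genes of the mouse genome, in the HoxA, HoxB, HoxC and HoxD clusters, were examined for open chromatin in nuclei of the adult nucleus accumbens. Members were all protein-coding genes of the RefSeq annotation of GRCm38.p6 whose symbol is Hoxa, Hoxb, Hoxc or Hoxd plus a number, 39 of 21887 genes. HoxA holds 11 of them on chromosome 6, HoxB 10 on chromosome 11, HoxC 9 on chromosome 15 and HoxD 9 on chromosome 2. Every 200 bp open region in a gene body or the 2 kb on either side was used, which gave 10 of 205848 regions in the table of PV libraries at 60 min, 8 of 178637 in that of SST libraries and 11 of 171130 in that of PV libraries at 24 h.

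Accessibility was measured by ATAC-seq, in which the Tn5 transposase inserts adapters into accessible DNA. All mice were adults of P60 to P210, compound heterozygous for the Cre-dependent nuclear envelope tag Sun1-GFP (Rosa-LSL-Sun1-GFP) and for Pvalb-IRES-Cre or Sst-IRES-Cre. Nuclei bound by an anti-GFP antibody are the IP libraries, and those left in the supernatant the unbound fraction, UF. There were 37 libraries in 10 groups, each library from 1 mouse. From the Pvalb line, mice killed 60 min after 1 i.p. injection, of saline or of 3 mg/kg amphetamine (AMPH), are represented by 4 IP and 4 UF libraries for each of the treatments. Mice injected daily for 6 days and killed 24 h after the last dose are represented by 3 IP and 4 UF libraries for saline, and 4 and 4 for AMPH. The Sst line gave 3 IP and 3 UF libraries after saline, with no time given. All isolation buffers held 5 mM sodium butyrate, an inhibitor of histone deacetylases, in every group, so chromatin without it was not measured. The tag marks cells in which the Pvalb or Sst promoter drives Cre, and the labels do not say whether an IP and a UF library came from the same mouse.

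Hox genes encode homeodomain transcription factors that give cells their position along the body axis, and their order along a cluster follows their order along that axis. They are active in the hindbrain, spinal cord and trunk of the embryo and are classic targets of Polycomb repressive complexes, of which PRC2 methylates lysine 27 of histone H3 and PRC1 ubiquitinates histone H2A. In the forebrain, including the striatum, the clusters are known as silent Polycomb-type loci. Histone marks and RNA were not analysed here.

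Library depth, as the sum of counts over all regions, was 1.39 to 15.1 M in the PV table at 60 min, 6.57 to 11.8 M in the SST table and 0.651 to 9.66 M in the PV table at 24 h. Accessibility summed over Pvalb ran from 47.4 to 94.9 CPM (counts scaled to library size, per M counts) in PV IP after saline at 60 min and from 6.52 to 8.47 in the matching UF libraries, and over Sst from 10.5 to 16.3 CPM in SST IP and from 1.01 to 1.68 in SST UF. The summed level of 8 oligodendrocyte marker genes was 229 to 271 CPM in saline PV IP at 60 min against 450 to 573 in UF, 222 to 282 against 413 to 503 after AMPH, and 244 to 253 against 507 to 532 in the SST table. At 24 h it was 148 to 167 against 312 to 406 after saline and 152 to 221 against 323 to 369 after AMPH. For 9 endothelial and mural markers the level was 340 to 489 CPM in PV IP against 66.9 to 115 in UF at 24 h after saline, 174 to 336 against 115 to 134 at 60 min after saline, 148 to 257 against 110 to 131 at 60 min after AMPH and 295 to 476 against 83.7 to 115 at 24 h after AMPH. The 6 microglia markers summed to 35.7 to 41.8 CPM in SST IP against 81.3 to 85.6 in SST UF. They overlapped between fractions in the PV libraries, at 36.8 to 71.6 CPM in IP against 62.4 to 82.0 in UF at 60 min after saline, where Aif1 had no region. The 7 markers of spiny projection neurons, the main neurons of this tissue, summed to 132 to 182 CPM in PV IP against 279 to 349 in UF at 60 min after saline and 138 to 155 against 271 to 317 after AMPH. At 24 h they were at 184 to 202 against 297 to 366 after saline and 172 to 203 against 344 to 408 after AMPH, and in the SST table at 183 to 216 against 190 to 204. The part of these other cell types in the IP and UF values below was not tested.

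The Hox clusters held few open regions. Of the 39 genes, 11, 7 and 12 had at least 1 region in the PV 60 min, SST and PV 24 h tables, or 28.2%, 17.9% and 30.8%, against 78.5%, 77.2% and 77.9% of all protein-coding genes. Among the 14013 genes with bodies of 1.78 to 44.0 kb, the range of the Hox genes, 80.8%, 79.0% and 80.0% had a region. Lengths were not matched within that range. Among 50 other developmental regulators known as Polycomb targets, such as Pax, Gata and Tbx genes, the shares were 72.0%, 62.0% and 76.0%. The Hox share was the lowest of these in each table.

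A region lay within reach of 14 Hox genes in at least 1 table: Hoxa3, Hoxa9, Hoxa13, Hoxb3, Hoxb5, Hoxb6, Hoxb8, Hoxc5, Hoxc6, Hoxd1, Hoxd3, Hoxd10, Hoxd12 and Hoxd13. The other 25 genes had none, 8 of them in HoxA, 6 in HoxB, 7 in HoxC and 4 in HoxD. Over the 383 kb of Hox genes and flanks there were 2.61, 2.09 and 2.87 regions per 100 kb in the PV 60 min, SST and PV 24 h tables, against 11.9, 9.83 and 10.1 over all genes and 5.02, 5.29 and 5.51 over the other Polycomb targets. HoxA had 4.01 regions per 100 kb and HoxD 3.34 in each table. HoxB varied from 1.01 to 3.02 and HoxC from 0 to 1.06, so the clusters on chromosomes 6 and 2 held regions more densely than HoxC in every table. A missing region means that the authors called no region there on these libraries, not that the DNA gave no reads.

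**Figure D1:**
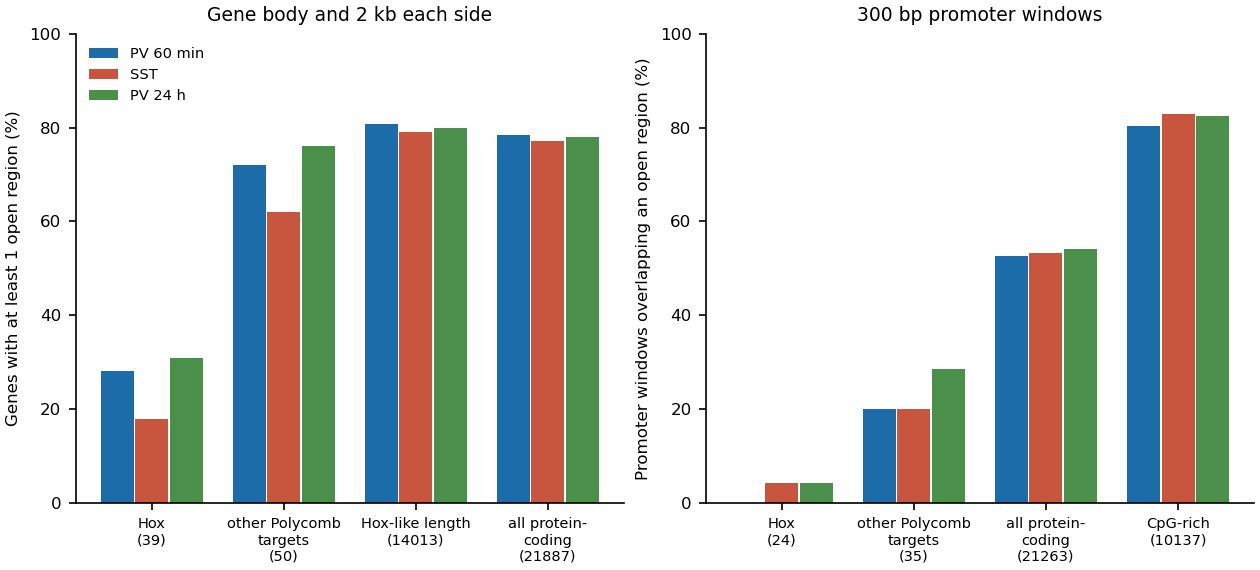
Percent of genes with at least 1 open region in the gene body or 2 kb on either side, for the Hox genes, other Polycomb targets, genes of Hox-like length and all protein-coding genes (left), and percent of promoter windows that overlap an open region (right), in the 3 tables. On the left the Hox bars stand at 17.9% to 30.8% and the bars of all genes at 77.2% to 78.5%.

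The regions were also unevenly placed. The longest stretch with no region was 84.5 to 89.2 kb in HoxB, 66.4 kb in HoxC in all 3 tables, 46.8 to 49.1 kb in HoxD and 38.1 to 56.3 kb in HoxA. Just outside the clusters, the 100 kb flanks held regions on both sides of HoxA, HoxB and HoxD (5 to 7 and 2 to 3 for HoxA in the order of the genome, 1 to 5 and 5 to 8 for HoxB, 3 to 4 and 4 to 5 for HoxD). HoxC had 0 on its left and 7 to 10 on its right.

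**Figure D2:**
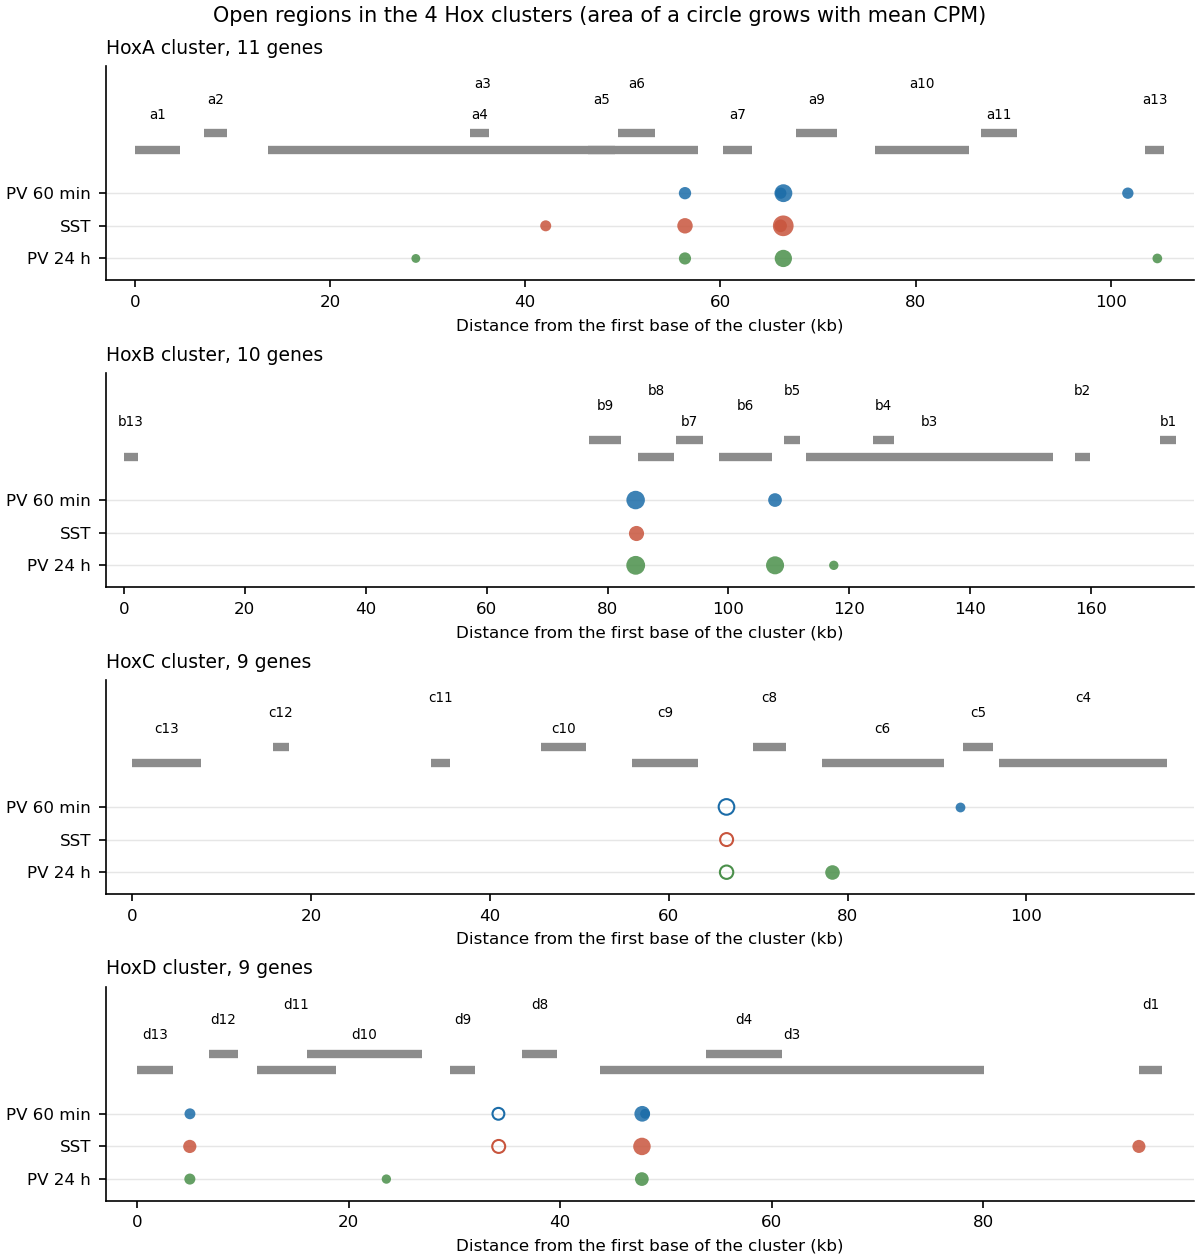
Map of the 4 clusters, with distance along each cluster in kb, the Hox gene bodies as bars and the open regions of each table as circles whose area grows with mean CPM. Filled circles are regions in or within 2 kb of a Hox gene body, open circles other regions inside a cluster, and long stretches, such as the first 66.4 kb of HoxC, hold neither.

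Promoters were rarely among the open regions. RefSeq promoter windows of 300 bp (250 bases before to 50 after the start) were at hand for 22 Hox genes, 24 windows in all, and 0, 1 and 1 of the 24 overlapped an open region in the PV 60 min, SST and PV 24 h tables (0%, 4.17% and 4.17%). Of 21263 windows of all genes, 52.7%, 53.2% and 54.2% did, and of the 10137 windows rich in CpG (observed over expected CpG of at least 0.6) 80.4%, 82.8% and 82.5% did. The Hox windows had an observed over expected CpG of 0.257 to 1.02, with a median of 0.626, and of the 12 Hox windows that are CpG-rich 0%, 8.33% and 8.33% were open. The 35 windows of the other Polycomb targets were open at 20.0%, 20.0% and 28.6%.

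Only 2 Hox windows overlapped an open region, those of Hoxd1 in the SST table and of Hoxd10 in the PV 24 h table. The Hoxd10 region was near the floor, with 38 reads over all libraries of its table and a mean of 0.676 CPM (5.04 percentile of its regions). The Hoxd1 region held 132 reads and 2.29 CPM (31.7 percentile). The 250 bases upstream of the starts of Hoxd1 and Hoxd10 are shown beside those of Hoxa9 and Hoxb8, whose windows overlapped no region. The neighbourhoods of Hoxa9 and Hoxb8 held the strongest regions of HoxA and HoxB. The start used for Hoxb8 (chr11:96281905) lies inside its annotated body, which begins at chr11:96279401. The strongest HoxB region lay just before that beginning, which no window covered. Sequences are from RefSeq (GRCm38.p6), 5′ to 3′ on the gene's strand: Hoxd1 chr2:74762730-74762979 on the plus strand, Hoxd10 chr2:74691641-74691890 on the plus strand, Hoxa9 chr6:52227371-52227620 on the minus strand and Hoxb8 chr11:96281655-96281904 on the plus strand. In Hoxd1 and Hoxd10 capitals mark the bases inside the open region (123 and 200 bases). In Hoxa9 and Hoxb8 they mark CpG dinucleotides.
Hoxd1: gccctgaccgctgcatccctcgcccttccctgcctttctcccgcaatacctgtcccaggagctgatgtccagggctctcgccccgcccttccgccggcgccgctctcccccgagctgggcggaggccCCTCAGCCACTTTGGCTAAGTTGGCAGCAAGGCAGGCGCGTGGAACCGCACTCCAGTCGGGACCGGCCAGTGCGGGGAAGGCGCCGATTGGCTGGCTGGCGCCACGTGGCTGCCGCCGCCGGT
Hoxd10: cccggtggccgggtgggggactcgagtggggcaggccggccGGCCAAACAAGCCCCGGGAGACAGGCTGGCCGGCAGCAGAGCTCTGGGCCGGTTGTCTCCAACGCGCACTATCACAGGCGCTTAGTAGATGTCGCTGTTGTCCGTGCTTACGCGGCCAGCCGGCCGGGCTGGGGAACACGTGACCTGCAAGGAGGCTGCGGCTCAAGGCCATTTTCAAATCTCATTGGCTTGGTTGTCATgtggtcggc
Hoxa9: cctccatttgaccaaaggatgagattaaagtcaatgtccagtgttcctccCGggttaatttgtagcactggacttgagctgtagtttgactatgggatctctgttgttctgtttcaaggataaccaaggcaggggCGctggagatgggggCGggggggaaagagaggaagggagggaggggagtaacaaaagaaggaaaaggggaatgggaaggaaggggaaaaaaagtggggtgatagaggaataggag
Hoxb8: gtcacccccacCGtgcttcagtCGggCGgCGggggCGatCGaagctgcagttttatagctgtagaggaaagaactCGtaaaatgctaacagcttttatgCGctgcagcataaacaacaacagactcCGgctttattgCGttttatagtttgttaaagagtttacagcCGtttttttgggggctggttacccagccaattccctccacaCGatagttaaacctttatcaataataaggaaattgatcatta
The Hoxa9 stretch held 3 CpG dinucleotides (observed over expected 0.266) and the Hoxb8 stretch 12 (0.974), so the windows without a region include CpG-poor and CpG-rich ones. Both open stretches held an E-box of the letters CACGTG, the motif of several helix-loop-helix factors, and a CCAAT box (CCAAT or, on the other strand, ATTGG). The Hoxb8 stretch, which overlapped no region, held a CCAAT box as well. Over the 300 bp windows, read on both strands, CACGTG stood in 5 of 24 Hox windows (20.8%: Hoxd1, Hoxd4, Hoxd10, Hoxd11 and Hoxd13) and in 7.84% of all windows. The CCAAT box stood in 15 of 24 (62.5%) and in 38.2% of all windows. These motifs were chosen after the sequences were seen, and a match is not a site of binding.

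Merged over tables by an overlap of at least 100 bp, the 29 regions formed 17 sites, 7 in HoxA, 3 in HoxB, 2 in HoxC and 5 in HoxD. Of these, 5 were in all 3 tables, 2 in 2 tables and 10 in 1 table. The midpoints of 9 lay inside a Hox gene body and those of 8 outside, among them the site between Hoxb6 and Hoxb5, in the noncoding Hoxb5os. The 5 shared sites, in mm10, were 1 between Hoxb9 and Hoxb8 (chr11:96278865-96279076, 431 bp from the body of Hoxb8), 1 between Hoxd13 and Hoxd12 (chr2:74673089-74673303), 1 in Hoxd3 and the noncoding Hoxd3os1 (chr2:74715845-74716081), 1 between Hoxa6 and Hoxa7 in the long annotated body of Hoxa3 and the noncoding Hoxaas3 (chr6:52211642-52211844), and 1 between Hoxa7 and Hoxa9 (chr6:52221713-52221926, 1278 bp from the body of Hoxa9). They are called the Hoxb8–Hoxb9, Hoxd12–Hoxd13, Hoxd3, Hoxa6–Hoxa7 and Hoxa7–Hoxa9 sites here. A neighbour of the last lay at chr6:52221437-52221662 in the PV 60 min and SST tables.

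The mean level of Hox regions ran from 0.841 to 5.58 CPM with a median of 1.695 in the PV 60 min table, from 1.33 to 7.23 with a median of 2.88 in the SST table and from 0.501 to 5.80 with a median of 1.85 in the PV 24 h table. The medians of all regions were 2.70, 3.09 and 2.17 CPM. On the scale of percentiles of all regions, the Hox medians stood at 24.95, 44.45 and 43.0, and the highest Hox regions at 80.2, 83.9 and 81.7. Hox regions thus ranged from near the bottom of each table to well above its middle. Counts behind these levels were small: per library a Hox site had a median of 14 reads in the PV 60 min table, 27 in the SST table and 6 in the PV 24 h table.

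**Figure D3:**
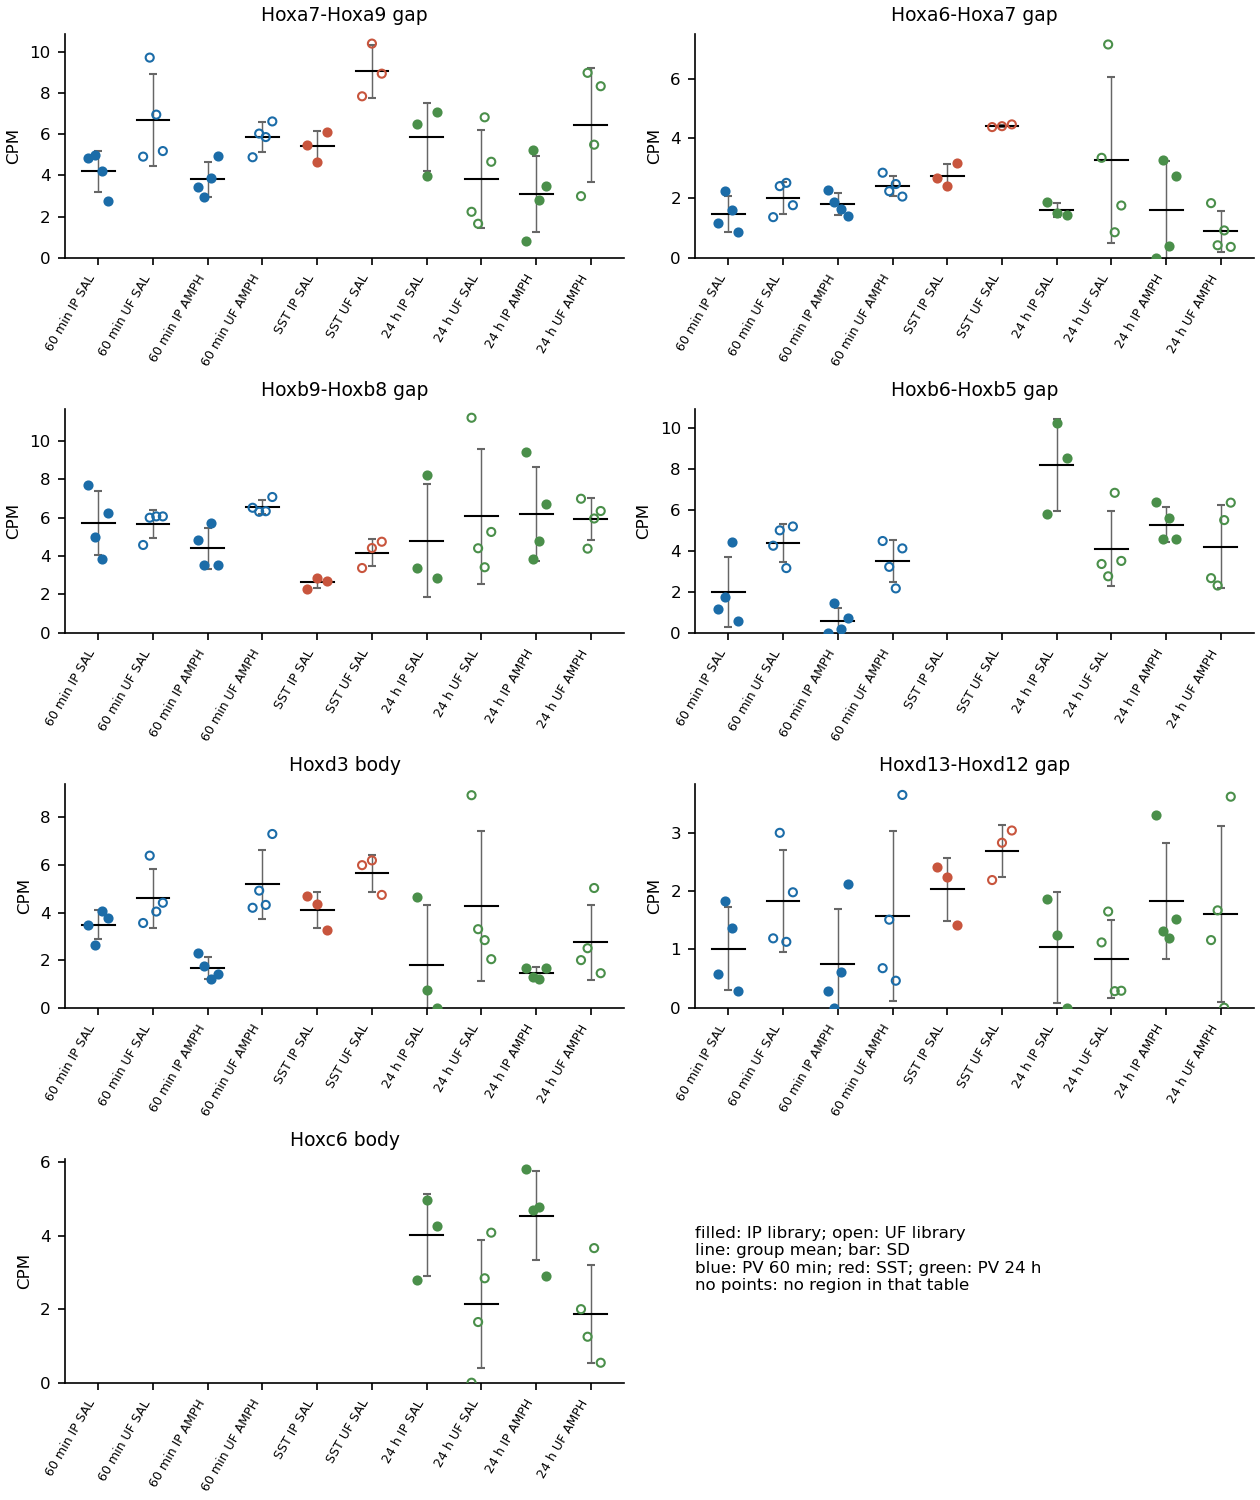
Level in CPM of 7 Hox sites in each group. Filled points are IP libraries, open points UF libraries, lines group means and bars the SD (cut at 0). The Hoxa7–Hoxa9 and Hoxb8–Hoxb9 sites reach the highest levels, and UF points lie above IP points at several sites of the SST table.

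The gene with the highest level per kb in HoxA was Hoxa9, which specifies posterior identity, in all 3 tables (0.793, 1.13 and 0.573 CPM per kb in the PV 60 min, SST and PV 24 h tables). In HoxB it was Hoxb8, a posterior gene also known from hematopoietic cells, in the PV 60 min table (0.562 CPM per kb) and the SST table (0.342), and Hoxb5, a gene of hindbrain and neural crest, in the PV 24 h table (0.794). In HoxC, known for the thoracic and brachial spinal cord, it was Hoxc5 at 60 min (0.114) and Hoxc6 at 24 h (0.174), with no gene in the SST table. In HoxD, known for limb and genital patterning, it was Hoxd12 in both PV tables (0.193 and 0.202) and Hoxd1 in the SST table (0.371). The levels per kb of HoxC and HoxD leaders were thus lower than that of Hoxa9 in every table. These ranks depend on window length. Hoxd12 leads Hoxd13, Hoxb5 leads Hoxb6 and Hoxc5 leads Hoxc6 at 60 min only by a shorter window, since each pair shares its region there. Before division by length Hoxd3, with a window of 40.3 kb, was the highest of HoxD (4.58, 4.88 and 2.62 CPM in the PV 60 min, SST and PV 24 h tables).

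The Hoxa7–Hoxa9 site, near Hoxa9, was the strongest or among the strongest Hox regions in each table. At 60 min its levels were 4.83, 4.98, 4.20 and 2.76 CPM in saline PV IP and 4.91, 9.72, 6.95 and 5.18 in saline UF, and 3.42, 2.97, 3.88 and 4.94 in AMPH IP and 4.88, 6.03, 5.86 and 6.62 in AMPH UF. In the SST table the site held 5.47, 4.66 and 6.10 CPM in IP and 7.84, 10.4 and 8.94 in UF. All SST UF libraries lay above all SST IP libraries, and in the PV libraries at 60 min the fractions overlapped by a narrow margin in both treatments. At 24 h the site stood at 6.51, 3.98 and 7.09 CPM in saline IP and 2.23, 1.65, 6.82 and 4.66 in saline UF. After AMPH it stood at 0.829, 5.25, 2.80 and 3.50 CPM in IP and 2.99, 8.98, 5.49 and 8.33 in UF. The 24 h groups overlapped in both treatments, and their lowest counts were 2 and 3 reads.

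In the SST table the Hoxa7–Hoxa9 site was less accessible in IP than in UF. The log2 fold change of IP over UF was -0.73 ± 0.21 (SE; adjusted p = 0.0033 in edgeR's quasi-likelihood test with Benjamini-Hochberg adjustment over all regions). The means were 5.41 ± 0.723 and 9.06 ± 1.28 CPM (SD, n = 3 each). In bulk nuclei a lower level can come from fewer nuclei that are open at a site or from less opening per nucleus, and these cannot be told apart. In PV nuclei at 60 min the values were -0.68 ± 0.32 after saline (adjusted p = 0.0893 in the same test) and -0.60 ± 0.33 after AMPH (adjusted p = 0.139), which did not pass. With a replicate block, a pairing that the labels do not give, the site was called lower after saline.

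Across the SST table, 4 of the 8 Hox regions tested were lower in IP and 0 higher, where 22.7% of all 177788 regions tested were lower and 46.8% were called in either direction. All 8 had negative fold changes, with a median of -0.61 against -0.02 over all regions. The other called sites were in HoxA and HoxB. At the site between Hoxa4 and Hoxa5 (chr6:52197371-52197570, in the long annotated body of Hoxa3) IP held 1.02, 0.601 and 0.218 CPM and UF 1.69, 2.20 and 2.24, with a log2 fold change of -1.75 ± 0.49 (adjusted p = 0.00229, edgeR). At the Hoxa6–Hoxa7 site IP held 2.67, 2.41 and 3.16 CPM and UF 4.38, 4.41 and 4.47 (-0.67 ± 0.27, adjusted p = 0.0349, edgeR). At the Hoxb8–Hoxb9 site IP held 2.29, 2.86 and 2.72 CPM and UF 3.37, 4.41 and 4.74 (-0.67 ± 0.28, adjusted p = 0.0433, edgeR). The IP and UF libraries did not overlap at any of these 4 sites, which are named because they were called. The share of all regions with such a gap was not counted.

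The 4 calls were not equally firm. Those at the Hoxa7–Hoxa9 and Hoxa4–Hoxa5 sites passed without any 1 of the 6 libraries. At the Hoxa4–Hoxa5 site, though, IP held 8, 4 and 2 reads and UF 20, 21 and 25. Only UF, where it was high, carried that site through the count filter. Its mean level stood at the 4.44 percentile of SST regions. With DESeq2 the adjusted p was 0.117 at the Hoxb8–Hoxb9 site and 0.096 at the Hoxa6–Hoxa7 site. The HoxD regions of the SST table did not pass: the Hoxd3 site had -0.47 ± 0.24 (adjusted p = 0.109, edgeR), the Hoxd12–Hoxd13 site -0.42 ± 0.33 (adjusted p = 0.30, edgeR) and the Hoxd1 promoter -0.54 ± 0.33 (adjusted p = 0.172, edgeR). The Hoxd1 promoter region (chr2:74762857-74763056) held 1.65, 1.95 and 1.96 CPM in IP and 2.28, 2.83 and 3.04 in UF, which do not overlap. Summed per gene, Hoxa3 (-0.77 ± 0.21, adjusted p = 0.0053, edgeR), known for hindbrain and pharyngeal patterning, and Hoxa9 (-0.43 ± 0.18, adjusted p = 0.0433, edgeR) were lower in SST IP, 2 of 7 genes tested against 29.4% of all genes lower and 58.3% called in either direction. Hoxa9 summed over its regions ran from 6.76 to 8.17 CPM in IP and from 10.5 to 12.7 in UF, and its adjusted p was above 0.05 under DESeq2 (0.0938).

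**Figure D4:**
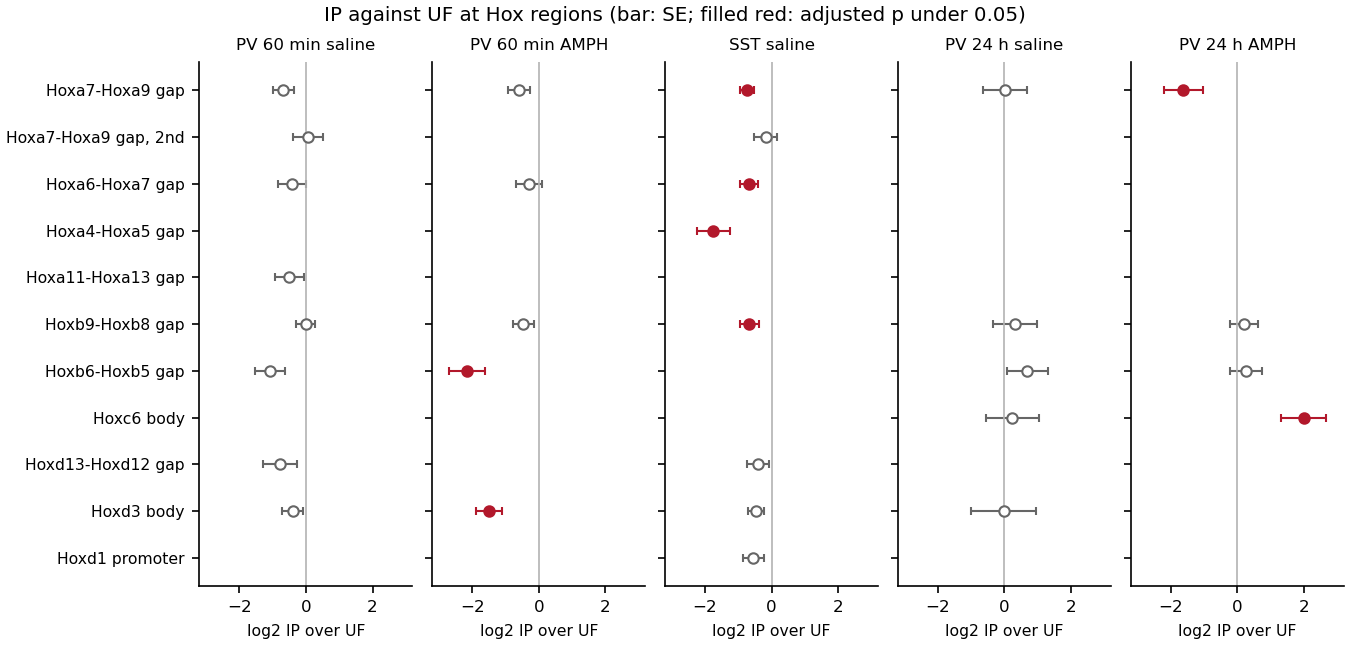
Log2 fold change of IP over UF with its SE for each Hox site tested, by comparison, red where the adjusted p is under 0.05. In the SST table all 8 points lie below 0, and after saline at 60 min 7 of 8 do (the Hoxb8–Hoxb9 site, at -0.01, was at 0.03 with DESeq2), while the 24 h points lie on both sides. Some sites passed the count filter through UF but not through IP alone.

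In PV nuclei 60 min after saline, 0 of 8 Hox regions tested were called by edgeR, where 44.8% of all 182547 regions were (21.5% higher and 23.3% lower). Of the 8, 2 had an unadjusted p under 0.05, and DESeq2 called 0. Fold changes were negative at 7 of 8, although the Hoxb8–Hoxb9 site, at -0.01, was at 0.03 with DESeq2 and the positive one, the neighbour of the Hoxa7–Hoxa9 site, went from 0.06 to -0.01 without TMM scaling. Their median was -0.47 against -0.02 over all regions. The largest was at the site between Hoxb6 and Hoxb5 (chr11:96301913-96302119, in the noncoding Hoxb5os), where IP held 1.16, 1.73, 4.43 and 0.581 CPM and UF 4.24, 4.99, 3.15 and 5.18 (-1.09 ± 0.45, adjusted p = 0.0576, edgeR). Only IP library 4 reached into the range of UF. In fits without 1 library the value ran from -1.85, without that IP library (adjusted p = 0.00193, edgeR), to -0.78. With a replicate block, a pairing that the labels do not give, edgeR called this site and the Hoxa7–Hoxa9 site lower. In that fit 47102 of all 182547 regions were lower. The Hoxb5–Hoxb6, Hoxd12–Hoxd13 and Hoxa6–Hoxa7 sites reached the count filter of the main fit through UF but not through IP alone. Entry of this kind favours negative values. With no filter, 7 of 10 Hox regions were negative, with a median of -0.39 against 0.05 over all regions. At the gene level 0 of 9 Hox genes were called by edgeR or DESeq2 (2 with an unadjusted p under 0.05) against 25.0% of all genes, all 9 with negative values and a median of -0.55. The 2 are Hoxb5 and Hoxb6, which share 1 region, as Hoxd12 and Hoxd13 do, so the 9 are not separate values.

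After AMPH at 60 min, 2 of 5 Hox regions tested were lower in PV IP than in UF and 0 higher, where 22.0% of all 143903 regions tested were lower and 43.6% were called in either direction. The Hoxb5–Hoxb6 site held 0, 1.43, 0.204 and 0.705 CPM in IP (0, 13, 1 and 1 reads) and 4.47, 3.21, 2.16 and 4.11 in UF (-2.15 ± 0.55, adjusted p = 0.00261, edgeR). The Hoxd3 site held 2.28, 1.76, 1.22 and 1.41 CPM in IP and 4.20, 4.92, 4.32 and 7.30 in UF (-1.50 ± 0.39, adjusted p = 0.00277, edgeR). At both sites every IP library lay below every UF library. Both are named because they were called, and such gaps were not counted over all regions. Neither site reached the count filter on its IP libraries alone, so both entered the test through UF, where they were high. Entry of this kind favours a call lower in IP. Per gene, Hoxb5 and Hoxb6, which share that 1 region (-2.28 ± 0.54, adjusted p = 0.00384, edgeR), and Hoxd3, a partner of Hoxa3 in axial patterning (-1.26 ± 0.34, adjusted p = 0.00836, edgeR), were lower, 3 of 6 genes tested against 15.5% of all genes lower and 28.2% in either direction. These gene calls held without any 1 of the 8 libraries, but the Hoxb5 and Hoxb6 value ran from -3.86 (without IP library 2) to -1.97 (without IP library 3). With counts from gene bodies alone 1 of only 2 Hox genes tested was called.

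No other Hox site of the 60 min table was called. The Hoxb8–Hoxb9 site held 7.72, 4.98, 3.86 and 6.25 CPM in saline IP and 4.57, 5.99, 6.06 and 6.06 in saline UF (-0.01 ± 0.29, adjusted p = 0.989, edgeR), and the fractions overlapped. After AMPH it held 4.84, 3.53, 5.71 and 3.53 CPM in IP and 6.51, 6.30, 6.33 and 7.07 in UF (-0.47 ± 0.31, adjusted p = 0.234, edgeR), with all IP values below all UF values. The Hoxd3 site after saline held 3.47, 2.64, 4.08 and 3.78 CPM in IP and 3.56, 6.39, 4.04 and 4.41 in UF (-0.40 ± 0.32, adjusted p = 0.321, edgeR). The fractions overlapped at the Hoxd3 site after saline. The Hoxa6–Hoxa7 site ran from 0.872 to 2.28 CPM over the IP libraries and from 1.36 to 2.85 over the UF libraries of both treatments, and the Hoxd12–Hoxd13 site from 0 to 2.12 and from 0.463 to 3.65.

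At 24 h the pattern differed in places, at lower depth. After saline, 0 of 5 Hox regions tested were called by edgeR (0 with an unadjusted p under 0.05, and 0 called by DESeq2), against 19.1% of all 77164 regions (9.57% higher and 9.52% lower), and the median was 0.24 against 0.11 over all regions. At the gene level 0 of 7 were called by edgeR or DESeq2, 0 of them with an unadjusted p under 0.05, against 14.9% of all genes (7.13% higher and 7.75% lower). The Hoxb5–Hoxb6 site held 5.77, 10.2 and 8.51 CPM in saline IP and 3.35, 2.75, 6.82 and 3.50 in saline UF, and 6.35, 4.59, 5.59 and 4.56 in AMPH IP and 2.66, 2.3, 5.49 and 6.34 in AMPH UF. Its fold changes were 0.69 ± 0.61 after saline and 0.26 ± 0.48 after AMPH, set beside -1.09 and -2.15 at 60 min. The 2 tables hold separate libraries and the difference between times was not tested. Saline fold changes at 24 h rest on the libraries with Iso2 in their titles, since all saline IP libraries carry it.

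After AMPH at 24 h, 1 of 4 Hox regions tested was higher and 1 lower in PV IP than in UF, where 14.0% and 13.1% of all 94379 regions were and 27.1% in either direction. The higher one was in Hoxc6 (chr15:102999283-102999482), a gene of the brachial spinal cord, with 5.80, 4.70, 4.79 and 2.89 CPM in IP and 2.00, 1.25, 3.66 and 0.543 in UF (2.00 ± 0.68, adjusted p = 0.0292, edgeR). The lower one was the Hoxa7–Hoxa9 site (-1.62 ± 0.58, adjusted p = 0.037, edgeR). The fractions overlapped at both. The Hoxc6 site reached the count filter through IP alone and the Hoxa7–Hoxa9 site through UF alone, in each case the higher fraction. Per gene, Hoxc6 (1.92 ± 0.62, adjusted p = 0.022, edgeR) and Hoxa9 (-1.59 ± 0.54, adjusted p = 0.0292, edgeR) were called, 2 of 6 against 24.4% of all genes. Without the term for the Iso number of the titles neither site was called (adjusted p = 0.0687 for Hoxc6 and 0.14 for the Hoxa7–Hoxa9 site, edgeR), and without IP library Iso1-1 neither gene was (adjusted p = 0.0572 for Hoxc6 and 0.205 for Hoxa9, edgeR). The Hoxa9 value ran from -2.77 without UF library Iso2-1 to -1.09 without IP library Iso1-1, and the Hoxc6 value from 1.45 without UF library Iso2-1 to 2.80 without IP library Iso1-1.

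After saline at 24 h the Hoxc6 site held 2.79, 4.97 and 4.26 CPM in IP and 0, 1.65, 2.84 and 4.08 in UF (0.24 ± 0.80). The Hoxb8–Hoxb9 site held 3.35, 8.21 and 2.84 CPM in saline IP and 11.2, 4.40, 3.41 and 5.25 in saline UF, and 9.39, 3.83, 4.79 and 6.69 in AMPH IP and 6.98, 4.38, 5.95 and 6.34 in AMPH UF. The Hoxd3 site held 4.65, 0.746 and 0 CPM in saline IP and 8.93, 3.30, 2.84 and 2.04 in saline UF, and 1.66, 1.31, 1.20 and 1.67 in AMPH IP and 2.00, 2.50, 5.03 and 1.45 in AMPH UF. After saline the fractions overlapped at all 3 sites, and after AMPH at the Hoxb8–Hoxb9 and Hoxd3 sites. Sites in Hoxb3, Hoxd10, Hoxa3 and Hoxa13 that only this table held ran from 0 to 3.66 CPM and were not tested, because their counts were too low.

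By cluster, the summed level of HoxA was 9.26, 9.24, 9.87 and 5.81 CPM in saline PV IP at 60 min and 10.2, 15.8, 13.2 and 9.03 in UF, and after AMPH 10.5, 6.83, 8.16 and 7.76 in IP and 9.49, 12.1, 10.0 and 11.9 in UF. The SST sums were 10.9, 9.77 and 11.5 in IP and 16.6, 19.3 and 17.3 in UF. At 24 h it was 9.49, 5.47 and 8.51 in saline IP, 7.81, 9.35, 7.96 and 9.32 in saline UF, 1.93, 9.73, 5.59 and 7.14 in AMPH IP and 5.65, 10.4, 10.1 and 10.1 in AMPH UF. The SST groups were apart (10.8 ± 0.904 against 17.8 ± 1.40, SD, n = 3 each), and the PV groups overlapped at both times.

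HoxB summed to 8.88, 6.70, 8.28 and 6.83 CPM in saline PV IP at 60 min and 8.81, 11, 9.21 and 11.2 in UF. After AMPH it summed to 4.84, 4.96, 5.92 and 4.23 in IP and 11, 9.51, 8.49 and 11.2 in UF, with a gap between the fractions. In the SST table, where it is the Hoxb8–Hoxb9 site alone, its values are those given above. At 24 h HoxB summed to 9.86, 18.7 and 11.3 CPM in saline IP, 14.5, 10.5, 10.2 and 8.74 in saline UF, 16.8, 8.86, 11.6 and 11.9 in AMPH IP and 9.98, 7.10, 13.3 and 12.7 in AMPH UF, and the fractions overlapped.

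HoxD summed to 4.44, 5.18, 6.24 and 4.36 CPM in saline PV IP at 60 min and 5.25, 11.7, 6.30 and 7.27 in UF, and after AMPH to 3.70, 2.97, 2.04 and 4.23 in IP and 5.56, 7.67, 5.86 and 11.2 in UF. The SST sums were 8.78, 8.57 and 6.65 in IP and 10.5, 11.9 and 10.8 in UF. The fractions were apart in the SST table and after AMPH at 60 min, and overlapped after saline. At 24 h the sums were 6.70, 2.74 and 1.42 CPM in saline IP, 10.0, 4.95, 4.55 and 2.33 in saline UF, 4.97, 3.72, 4.39 and 3.65 in AMPH IP and 4.16, 4.17, 6.86 and 5.07 in AMPH UF, and the fractions overlapped.

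HoxC held at most 1 region within 2 kb of its genes in each table. At 60 min its 1 site, between Hoxc6 and Hoxc5 (chr15:103013607-103013806), held 0.579, 2.03, 0.794 and 0.436 CPM in saline IP and 0.678, 1.13, 1.45 and 0.881 in saline UF, and 0, 0.22, 0.408 and 0.705 in AMPH IP and 1.08, 1.38, 1.08 and 0.685 in AMPH UF. It had too few reads for a test. At 24 h HoxC was the Hoxc6 site described above, and the SST table had no region within 2 kb of a HoxC gene. Over all 4 clusters, the summed level was 22.2 ± 3.34 CPM in saline PV IP and 30.8 ± 6.25 in UF at 60 min, 16.9 ± 1.68 and 29.5 ± 4.19 after AMPH, and 21.4 ± 0.568 and 33.0 ± 2.57 in the SST table (SD; n = 4 each in PV, 3 each in SST). At 24 h it was 28.7 ± 3.15 and 27.2 ± 3.52 after saline and 27.1 ± 1.73 and 26.8 ± 5.54 after AMPH, with n = 3, 4, 4 and 4. The tables hold different regions, so sums are compared within a table only.

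AMPH against saline gave no called Hox region or gene in either fraction at either time. At 60 min, 0 of 4 Hox regions tested in IP and 0 of 8 in UF were called by edgeR, and over all regions 0 of 145103 and 0 of 170436 (0.0% in both), with 3434 and 6476 at an unadjusted p under 0.05 and 0 and 2 called by DESeq2. At 24 h, 0 of 4 in IP and 0 of 4 in UF were called, against 0.0122% of 90202 and 0.0527% of 64477 regions. DESeq2 called 0 Hox regions in all 4 comparisons. The only Hox region with an unadjusted p under 0.05 was the Hoxd3 site in PV IP at 60 min (-1.02 ± 0.43 for AMPH over saline, adjusted p = 1.0, edgeR), where the AMPH libraries at 1.22 to 2.28 CPM all lay below the saline libraries at 2.64 to 4.08. In UF the same site ran from 4.20 to 7.30 CPM after AMPH and from 3.56 to 6.39 after saline (0.12 ± 0.26).

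The other fold changes of AMPH over saline at 60 min ran from -0.33 ± 0.37 (Hoxb8–Hoxb9) to 0.30 ± 0.49 (Hoxa6–Hoxa7) in IP and from -0.49 ± 0.39 (the site between Hoxa11 and Hoxa13) to 0.22 ± 0.30 (Hoxa6–Hoxa7) in UF. At 24 h they ran from -0.73 ± 0.44 (Hoxb5–Hoxb6) to 0.06 ± 0.53 (Hoxc6) in IP and from -0.97 ± 0.66 (Hoxd3) to 0.94 ± 0.53 (Hoxa7–Hoxa9) in UF. The interaction of AMPH with fraction was called at 0 of 8 Hox regions at 60 min and 0 of 6 at 24 h (0.0% of all regions in both, edgeR), with 1 Hox region at an unadjusted p under 0.05 at each time. DESeq2 called 0 Hox regions, and of all regions 0 at 60 min and 20 at 24 h. Its lowest unadjusted p-values were at the Hoxd3 site at 60 min (-1.17 ± 0.47) and the Hoxa7–Hoxa9 site at 24 h (-1.82 ± 0.77), both with an adjusted p of 1.0.

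**Figure D5:**
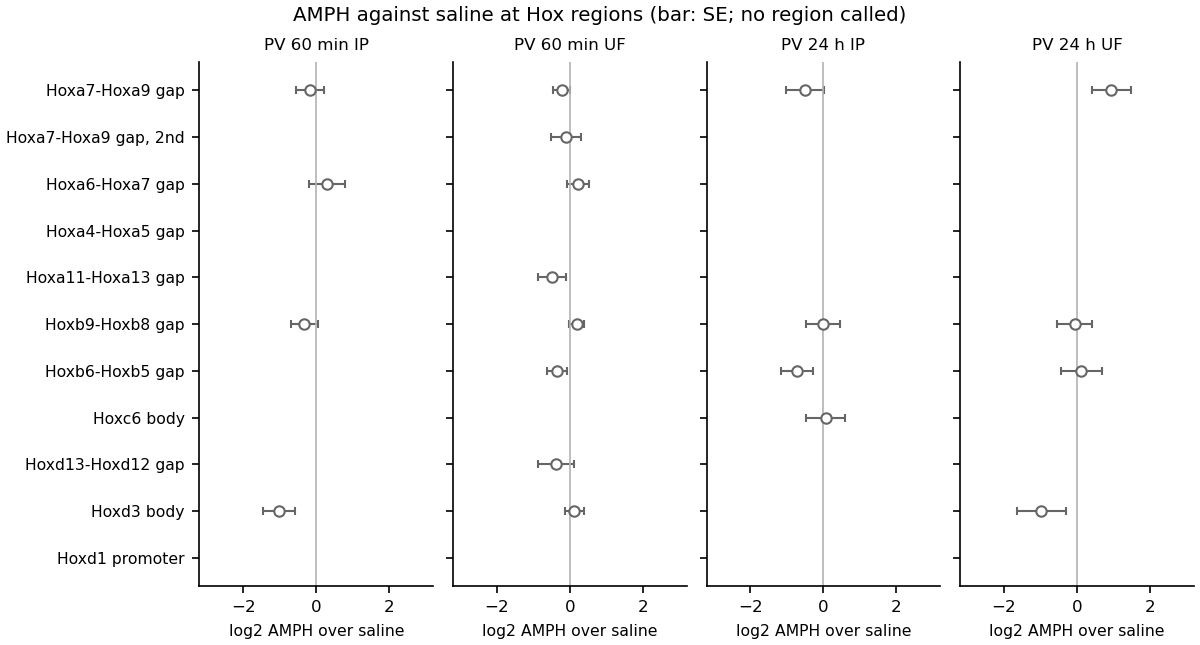
Log2 fold change of AMPH over saline with its SE for each Hox site tested, by fraction and time. No site passed the adjusted threshold, and the Hoxd3 site in PV IP at 60 min is at -1.02.

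Whether the IP over UF fold differed between the Pvalb and Sst lines was tested for 6 Hox genes over saline libraries, and 0 were called by edgeR or DESeq2, with 0 at an unadjusted p under 0.05, against 22.0% of 16578 genes. The differences ran from -0.54 ± 0.64 for Hoxd12 and Hoxd13 to 0.48 ± 0.41 for Hoxb8. Line, table and regions cannot be told apart in this test.

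Genes of the Polycomb machinery were themselves accessible, with 11 genes of PRC2 and 18 of PRC1 tested for IP against UF. Among SST libraries, 10 of the 18 PRC1 genes were lower in IP and 2 higher (median -0.38, against -0.01 over all genes, of which 29.4% were lower and 28.9% higher). Cbx2 (-1.43 ± 0.22, adjusted p = 3.37e-05), whose protein reads methylated lysine 27, was lower, and Pcgf5 (0.45 ± 0.09, adjusted p = 0.000658), a subunit of a variant PRC1, was higher, both in edgeR's test. Of PRC2, 3 of 11 were lower and 2 higher, with Eed, the subunit that binds the mark, at -0.61 ± 0.11 (adjusted p = 0.00022, edgeR) and Aebp2, an accessory subunit, at 0.41 ± 0.11 (adjusted p = 0.00334, edgeR). Of 11 Trithorax-side genes, which oppose Polycomb, 7 were lower and 0 higher, among them Rbbp5 (-1.08 ± 0.13, adjusted p = 2.58e-06, edgeR) and Kmt2a (-0.55 ± 0.11, adjusted p = 0.000444, edgeR).

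In PV nuclei at 60 min after saline, where 11.8% of all genes were higher and 13.2% lower, 1 of 11 PRC2 genes was lower (Mtf2, -0.83 ± 0.24, adjusted p = 0.0186, edgeR), and 3 of 18 PRC1 genes were lower and 2 higher. Pcgf3 (-0.70 ± 0.15, adjusted p = 0.00303, edgeR) and Ring1, a catalytic subunit (-0.77 ± 0.22, adjusted p = 0.0216, edgeR), were among the lower ones. At 24 h after saline (7.13% of all genes higher and 7.75% lower) 1 PRC1 gene was higher, Pcgf5 (0.89 ± 0.18, adjusted p = 0.000408, edgeR), and 0 of the PRC2 genes were called. After AMPH the counts lower and higher were 1 and 0 for PRC2 and 6 and 2 for PRC1 at 60 min, where 15.5% of all genes were lower and 12.7% higher. At 24 h after AMPH they were 3 and 0 for PRC2 and 3 and 1 for PRC1, where 12.1% of all genes were lower and 12.3% higher. Of the 11 Trithorax-side genes, 1 was lower in each of these PV comparisons. In addition, 1 was higher, at 60 min after saline only.

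The cofactors that bind DNA with Hox proteins, of the TALE class, varied by gene. Between the SST fractions, 3 of 9 were higher and 3 lower in IP, close to the 28.9% and 29.4% of all genes, with Pbx3, among the lower ones, at -0.60 ± 0.11 (adjusted p = 0.000138, edgeR). In PV nuclei 1 of 9 was lower at 60 min after saline, Pbx2 (-0.65 ± 0.17, adjusted p = 0.0132, edgeR), where 13.2% of all genes were lower. At 24 h after saline, where 7.75% of all genes were lower, 2 were lower, among them Meis2 (-1.43 ± 0.21, adjusted p = 1.83e-06, edgeR). Genes at the edges of the clusters were called in both directions: between the SST fractions 4 of 9 were higher, among them Mtx2 (0.86 ± 0.14, adjusted p = 7.97e-05, edgeR) and Lnpk (0.72 ± 0.13, adjusted p = 0.000164, edgeR) beside HoxD, and 3 lower, where 28.9% of all genes were higher and 29.4% lower. At 60 min after saline 3 of 11 were higher and 3 lower, where 11.8% and 13.2% of all genes were, among the latter Skap2 beside HoxA (-0.63 ± 0.11, adjusted p = 0.00106, edgeR).

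The other developmental regulators known as Polycomb targets included genes with larger differences than any Hox gene tested in the same comparison. For SST nuclei, 5 of 31 were higher and 10 lower, where 28.9% and 29.4% of all genes were, with Tbx15 at 2.21 ± 0.17 (adjusted p = 1.63e-08, edgeR), En2 at -2.52 ± 0.23 (adjusted p = 1.65e-07, edgeR) and Nkx2-2, a factor of oligodendrocyte precursors, at -1.18 ± 0.11 (adjusted p = 2.13e-07, edgeR). At 60 min after saline 5 of 36 were higher and 9 lower, where 11.8% and 13.2% of all genes were, with Cdx1, an upstream regulator of Hox genes in the embryo, at 2.29 ± 0.33 (adjusted p = 0.000237, edgeR) and Pax2 at -2.40 ± 0.31 (adjusted p = 0.00011, edgeR). At 24 h after saline 8 of 26 were higher and 4 lower, where 7.13% and 7.75% of all genes were, with Foxc1, known from pericytes and endothelium, at 2.69 ± 0.38 (adjusted p = 1.08e-06, edgeR), in libraries whose endothelial and mural marker levels were higher in IP. AMPH against saline gave 0 calls in these lists in any of the 4 comparisons (edgeR), against 0.0% of all genes. Over all genes 257 to 608 had an unadjusted p under 0.05, and DESeq2 called 0 to 1.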

How the data were processed

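The deposited values are raw counts of ATAC-seq reads per 200 bp region of mm10, in 3 tables made by the authors. The submitters' processing notes name MACS2 2.1.2 among the tools, with Bowtie2 2.3.4.3 and cutadapt 1.8.3, and also bedtools 2.25.0, deepTools, DESeq2 1.18.1 in R 3.4.4 and FastQC 0.11.2. How regions were merged, and any shift of reads for Tn5, are not given in the sources used here. Regions were chosen on these libraries, so sites open in few nuclei can be missing. Libraries were grouped by their labels and treated as independent, and in the 51 pairs of libraries within groups a chi-square test gave 1.62 to 8.13 per degree of freedom.

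The test was the quasi-likelihood test of edgeR 4.0.16 (R 4.3.3) on TMM-scaled counts, with filterByExpr (minimum count 10, minimum total 15). A region could pass this filter through a single fraction, which favours a call toward that fraction. Robust fits covered all regions or genes, tests were two-sided with Benjamini-Hochberg adjustment, and called means an adjusted p under 0.05. Fits at 24 h carry a term for the Iso number of the titles. For AMPH against saline in IP only AMPH library Iso1-1 carries Iso1, and the fold comes from Iso2 libraries. Gene counts sum regions in the body or 2 kb on either side (GenomicRanges 1.54.1). Neighbouring Hox genes can share a region, and their values are then the same. CPM were computed after TMM. Errors of fold changes are standard errors, which include counting error and library-to-library spread. The steps were tested on simulated data. DESeq2 1.42.0, no TMM, no filter, gene bodies alone, a replicate block, no Iso term, Iso2 libraries alone and leaving out single libraries were the alternatives.

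The members and gene lists were chosen with earlier results of these data known. Named genes were the leader of each cluster and table by CPM per kb and Hox genes called in at least 2 comparisons of IP with UF. Hoxa3, Hoxb6 and Hoxd3, each called in 1 comparison, are named as well, chosen after their values were seen. Named regions were the strongest of each cluster and table and the called ones. Motifs were chosen after the sequences were seen. Promoter windows for 17 Hox genes were not used here. Values of some list genes are not reported here. Of the cluster-edge list, Prac1 was not among the protein-coding genes.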

Additional observations from a re-analysis of the deposited data

Results flagged for a closer look

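Of 73 groups of 4 libraries checked for a library that stands apart (Dixon's ratio of the gap to the range, of which chance flags about 1 in 20), 4 had one. At the Hoxb8–Hoxb9 site, UF library 1 of the saline PV mice at 60 min held 4.57 CPM and the others 5.99 to 6.06. At the Hoxd12–Hoxd13 site, AMPH IP library Iso1-1 at 24 h held 3.31 CPM and the others 1.20 to 1.52. The HoxA sum was 5.65 CPM in AMPH UF library Iso1-1 at 24 h, against 10.1 to 10.4 in the others. It was 5.81 CPM in saline PV IP library 5 at 60 min, against 9.24 to 9.87 in the others.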

How the results depend on the processing

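Most values kept their direction and their side of the threshold, but most of these values were uncalled. For counts of called Hox regions and genes, 98 alternatives that leave out no library stayed within 1.5 times and 15 did not. For cluster sums the only alternative was no TMM, and all 48 group means stayed within 1 SD. TMM factors ran from 0.911 to 1.17, so this comparison could show little. Single sites and genes reversed in 22 alternatives that leave out no library and kept direction and side in 293. No called value reversed. The cause of these changes was not tested.

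For PV IP against UF at 60 min after saline, the count of called regions was 1 without TMM scaling and 0 to 1 when single libraries were left out. The count of genes was 0 to 2, since without saline IP library 4 Hoxb5 and Hoxb6 were called (adjusted p = 0.00683, edgeR). After AMPH the count of genes was 5 with no filter, 1 of 2 tested with gene bodies alone and 3 in each fit without 1 library. For 24 h after AMPH the regions numbered 1 with no filter, 0 without the Iso term and 1 with Iso2 libraries only. The genes numbered 0 without the Iso term, 0 with Iso2 libraries only, 1 with gene bodies alone and 0 to 2 without single libraries (0 without UF library Iso1-2 or IP library Iso1-1, and 1, Hoxa9, without IP or UF library Iso2-1). In the SST table DESeq2 called 2 regions and 1 gene, gene bodies alone gave 1 gene, and leaving out libraries gave 2 to 3 regions and 1 to 2 genes. The Hoxb8–Hoxb9 call was lost without IP library 1, 2 or 3 or UF library 2 or 3 (adjusted p up to 0.166, edgeR), the Hoxa6–Hoxa7 call without any 1 of the 6 but IP library 3 (up to 0.111), and the Hoxa9 gene call likewise (up to 0.188).

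Uncalled values changed sign as follows, as log2 fold changes. At 60 min after saline, IP over UF at the Hoxb8–Hoxb9 site was 0.026 with DESeq2, 0.065 with no filter and -0.077 to 0.15 without single libraries, and at the neighbour of the Hoxa7–Hoxa9 site -0.005 without TMM and -0.402 to 0.284. At 24 h after saline it was -0.092 without the Iso term and -0.359 to 0.558 at the Hoxb8–Hoxb9 site, -0.027 to 0.458 at Hoxc6, -0.139 to 0.446 at Hoxd3, and at the Hoxa7–Hoxa9 site -0.045 without TMM, -0.029 with no filter and -0.363 to 0.309. With Iso2 libraries only, after AMPH, it was -0.318 at the Hoxb8–Hoxb9 site and -0.393 at the Hoxb5–Hoxb6 site. AMPH over saline at 24 h at the Hoxb8–Hoxb9 site was 0.253 without the Iso term in IP, and in UF 0.032 with no filter, 0.024 without the Iso term and 0.521 with Iso2 libraries only; at the Hoxb5–Hoxb6 site in UF it was -0.136 without the Iso term. The interaction was -0.041 with DESeq2 and -0.021 without TMM at the Hoxa7–Hoxa9 site at 60 min, and 0.078 and 0.04 at Hoxd3 at 24 h.

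The replicate numbers do not pair the libraries by the labels, and same-numbered IP and UF libraries had correlated deviations of 0.088 to 0.299 at 60 min after saline, 0.08 to 0.374 after AMPH 0.054 to 0.115 in the SST table and -0.043 to 0.053 at 24 h. Every library correlated best with its own number at 60 min after saline and in the SST table, a hint from the data only, but neither pair did at 24 h after saline. With a replicate block the count of called regions was 2 at 60 min after saline (the Hoxb5–Hoxb6 and Hoxa7–Hoxa9 sites) and 0 regions and 0 genes at 24 h after AMPH. With the block, uncalled values that turned were -0.022 at the neighbour of the Hoxa7–Hoxa9 site, -0.106 at the Hoxa7–Hoxa9 site at 24 h after saline, -0.125 at the Hoxb8–Hoxb9 site after AMPH, and for AMPH over saline at 24 h 0.015 at the Hoxb8–Hoxb9 site in IP and -0.319 at the Hoxb5–Hoxb6 site in UF.

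Over all features, counts moved by more than 1.5 times for IP against UF in genes at 60 min after saline (6611 with the block against 4232), in regions at 24 h after saline (9185 with DESeq2 against 14735) and after AMPH (15644 with the block against 25539). Without saline IP library Iso2-1 or Iso2-2 the 24 h saline counts were 8207 and 5812 regions and 1369 and 1297 genes (against 2390), and without AMPH IP library Iso1-1 the genes after AMPH were 2458 (against 3971). For the difference between lines, 3653 genes became 2317, 2263 and 2377 without SST IP library 2 or 3 or UF library 3. For AMPH against saline, calls in IP regions at 24 h were 5 with DESeq2, 36 with no filter, 33 with the block and 0 without the Iso term (against 11), those in UF 78 with no filter (against 34), and counts of 0 became at most 20. A Hox site had a median of 6 reads per library at 24 h, which limits the precision there.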

Other observations

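Inside the spans of the clusters but more than 2 kb from any Hox gene body, 2 places held open regions that no count above includes. Between Hoxc9 and Hoxc8, a region at chr15:102987487-102987686 stood at 3.68 CPM on average over the libraries of the PV 60 min table, and HoxC also held 1 such region in the SST table (2.23 CPM) and 1 in the PV 24 h table (2.43 CPM). These are the 65.0, 30.2 and 54.8 percentiles of all regions of the tables, so in the SST table the HoxC span was not free of open regions although no HoxC gene was within 2 kb of one. Between Hoxd9 and Hoxd8, a region at chr2:74702279-74702478 stood at 1.69 CPM in the PV 60 min table, and the SST table held 1 there at 2.23 CPM.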
